A study of Mus musculus with 53 samples.

Results

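The Top2a-high and Top2a-low liver tumors are the 10 tumors with the most and the 10 with the least Top2a transcript among 28 mouse liver tumors, out of 29 in the series. Members were chosen from the deposited log2 values of the Top2a probe with the highest mean over these tumors, after leaving out the dim array of liver tumor 13. Every comparison of Top2a itself is therefore a description. The remaining 8 tumors are called middle tumors.

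The study followed tumors in mice that lose the spindle checkpoint gene Mad2l1 (Mad2 in the labels) from a single tissue. All ranked tumors came from mice of a B6-129Sv mixed background with the genotype Mad2f/f p53f/f Alb-Cre+ (p53 f/f) or Mad2f/f p53f/+ Alb-Cre+ (p53 f/+), so both sides share the floxed Mad2l1 alleles and the Cre. Alb-Cre is driven by the albumin promoter and acts in hepatocytes. Tumors were profiled whole, by BeadChip arrays, so cells in which Cre was never active are part of each value, and in such bulk samples fewer cells of a type and less RNA per cell cannot be told apart. The labels give no ages. Healthy livers are given as a reference of level, as 9 of 10, because the array labelled healthy liver 1 stood apart (its correlation across genes with the mean of the other 9 was 0.715).

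Topoisomerase II alpha, the product of Top2a, passes DNA strands through one another so that replicated chromosomes can separate. Cells make it from S phase to mitosis and degrade it on leaving the cycle, so its transcript in a tissue follows the share of cycling cells. Genes of this late wave commonly carry CCAAT boxes, bound by the factor NF-Y, and the cell cycle homology element with the core TTTGAA, through which the DREAM complex holds them silent in resting cells. Adult hepatocytes rarely divide, and liver cell proliferation is often accompanied by lower expression of mature hepatocyte functions.

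The upstream sequences of 5 genes that the results turn on are shown because they carry CCAAT or both of these elements. The genes are Top2a, 2 mitotic genes whose transcripts went with it, and H2ac12 and Ezh2. The mitotic genes are Cdk1, the mitotic kinase, and Cdc20, an activator of the anaphase-promoting complex. H2ac12 and Ezh2 lie outside the 2 cell cycle lists used below. Top2a, Cdk1 and Cdc20 carry CCAAT and TTTGAA, while H2ac12 and Ezh2 carry CCAAT and no TTTGAA in the bases printed. All 5 are RefSeq sequences of build GRCm38.p6, read 5′ to 3′ on the gene's strand. The sequences end at the base before the annotated start, and all 5 genes lie on the minus strand. Capitals mark CCAAT or TTTGAA on either strand (ATTGG or TTCAAA on the opposite one), and no marked matches overlap.
Top2a (chr11:99024190-99024439): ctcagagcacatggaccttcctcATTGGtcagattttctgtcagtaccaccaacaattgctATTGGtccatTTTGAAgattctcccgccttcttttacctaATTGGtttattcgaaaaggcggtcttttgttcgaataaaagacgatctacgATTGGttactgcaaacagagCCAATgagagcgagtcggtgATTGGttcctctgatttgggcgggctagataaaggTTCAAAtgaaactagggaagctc
Cdk1 (chr10:69352913-69353012): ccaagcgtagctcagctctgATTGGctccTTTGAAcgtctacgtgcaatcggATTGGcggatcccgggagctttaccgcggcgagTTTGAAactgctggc
Cdc20 (chr4:118437344-118437443): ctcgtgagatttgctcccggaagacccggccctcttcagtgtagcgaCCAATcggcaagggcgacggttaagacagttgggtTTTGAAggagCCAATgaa
H2ac12 (chr13:22035644-22035743): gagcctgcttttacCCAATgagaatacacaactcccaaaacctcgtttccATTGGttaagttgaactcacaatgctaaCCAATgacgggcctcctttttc
Ezh2 (chr6:47595031-47595130): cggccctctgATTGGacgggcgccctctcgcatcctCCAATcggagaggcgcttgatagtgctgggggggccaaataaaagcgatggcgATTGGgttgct

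In the 250 bases printed, Top2a had 6 matches to CCAAT and 2 to TTTGAA. Over the same 250-base window, CCAAT was found in 63.8% of 58 promoters of the cell cycle list genes past the threshold used below. It was found in 34.9% of 11895 promoters of all genes tested and 33.8% of all 32851 promoters in the table. TTTGAA was found in 37.9% of these 58 promoters, against 11.0% of the promoters of genes tested and 16.0% of all. Outside the lists, CCAAT was found in 47.1% of 34 promoters of genes that passed in the upward direction and in 5 of 12 promoters of genes that passed in the downward one. Of the 34, 16 held CCAAT, and the promoters of 8 H2A histone genes are among these 16, so the share rests in large part on histone genes. TTTGAA was found in 6 of the 34 and in 3 of the 12. All 9 promoters of called H2A histone genes, from both sets, held CCAAT and 5 held TTTGAA. A promoter could be matched for 55 of 68, 31 of 35 and 7 of 10 genes of these sets, some with more than 1 start. These matches are letters in a window and are not shown to be bound.

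Top2a ranged from 8.61 to 9.55 (median 8.90) in Top2a-high tumors and from 7.92 to 8.22 (median 8.15) in Top2a-low tumors on the deposited log2 scale, which has its lowest value at 7.67 and compresses low values. Liver tumors 24 (9.55), 2 (9.54) and 11 (9.38) led, and a gap separated them from the next tumor, 5 (8.92). Just inside the upper limit lay tumor 14 (8.61) and just outside it tumor 3 (8.54). At the lower limit tumors 8 (8.22, inside) and 18 (8.22, outside) differed only in the third decimal, so the lower limit cuts through a continuous range. After background correction and quantile normalization of the deposited signals (neqc), Top2a was 7.85 to 9.53 in Top2a-high tumors, 5.04 to 6.57 in Top2a-low tumors and 4.53 to 5.38 in healthy livers 2 to 10. Its probe was detected on 10 of 10 arrays of the high side and 7 of 9 of the low side.

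**Figure D1:**
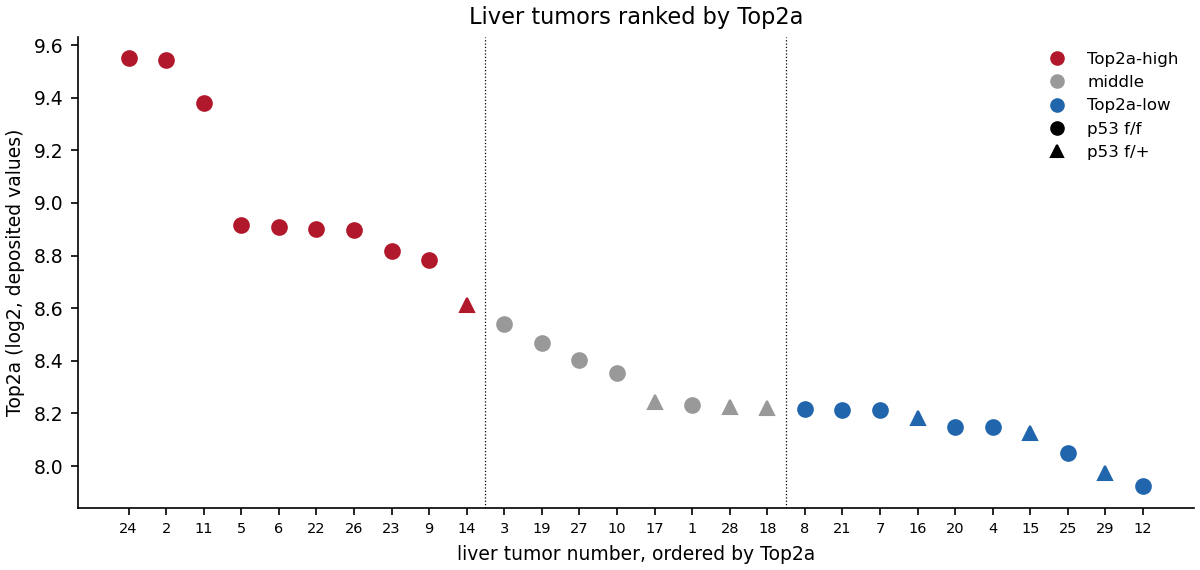
Deposited log2 value of Top2a (vertical axis) in the 28 ranked liver tumors, numbered and ordered along the horizontal axis. Circles are p53 f/f and triangles p53 f/+ tumors, and dotted lines bound the 8 middle tumors. The 10 high tumors reach from 8.61 to 9.55 and hold 1 triangle, and the 10 low tumors reach from 7.92 to 8.22 and hold 3.

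Genotypes were unevenly spread over the sides, but no difference in the mix passed the test. The Top2a-high side held 9 p53 f/f tumors and 1 p53 f/+ tumor, and the Top2a-low side 7 p53 f/f and 3 p53 f/+ tumors (Fisher's exact test, two-sided, p = 0.582). The odds ratio of 3.86 for p53 f/f on the high side rests on 4 p53 f/+ tumors. With each animal counted once a side, the mix was 7 to 1 among Top2a-high and 6 to 3 among Top2a-low tumors (exact p = 0.576). The other 3 p53 f/+ tumors were all among the 4 middle tumors with least Top2a. With all 28 tumors split at the median, the upper 14 held 13 p53 f/f tumors and the lower 14 held 8 (exact p = 0.0768), and all 7 tumors of highest Top2a were p53 f/f, against 4 of the 7 lowest (exact p = 0.192).

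The 10 high tumors came from 8 mice and the 10 low tumors from 9. Of 8 mice with 2 ranked tumors, 2 had both tumors on the high side (tumors 5 and 6, and 22 and 23), 1 had both on the low side (20 and 21), and the 2 tumors of 5 mice fell into different classes. In 1 mouse, p53 f/+, tumor 14 was high and tumor 15 low.

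Array chip and side coincided in part. Chip A held a high tumor and no low one, chips D and F held 3 and 1 low tumors with a signal and no high one, and chips B (3 high, 3 low), C (2 high, 1 low) and E (4 high, 1 low) held both. The share of probes detected was 35.4 to 38.8% (mean 37.7%) in Top2a-high tumors and 34.3 to 39.3% (mean 36.5%) in Top2a-low tumors (exact permutation test, two-sided, p = 0.109). Values within chip B, where sides were balanced, are given beside several of the results below. Liver tumor 12, the lowest in Top2a, has no signal among those used and entered only fits on the deposited log2 values. It stood apart there: its correlation across genes with the mean of the other ranked tumors was 0.849, against 0.916 or more for every other ranked tumor, and its nearest array was the dim tumor 13 (0.992). Hepatocyte markers were present on both sides. The mean over 12 of them was 11.8 to 13.1 in Top2a-high tumors and 12.2 to 13.3 in Top2a-low tumors, and Alb was near background in healthy livers too, with a highest value there of 5.53.

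The comparison of 10 Top2a-high with 9 Top2a-low tumors asked which other genes moved with Top2a. Of 11567 genes tested, 103 (0.89%) were higher and 10 (0.0865%) lower in Top2a-high tumors at an adjusted p under 0.05 (limma with animal as a random block, Benjamini-Hochberg over all genes). These p-values measure the spread between these tumors. The median difference over all genes was -0.0023. Of the 103 higher genes, 68 belong to the 2 cell cycle lists (DNA replication and S phase, and mitosis, spindle and cytokinesis). These lists hold Top2a and its companions in the cycle. Ranking by Top2a fixed their outcome in part, so their counts past the threshold are descriptions and not tests. Outside these lists 11396 genes were tested, of which 35 (0.307%) were higher and 10 (0.0878%) were lower. Of these 45 genes, 4 had no overlap between the sides (Arhgef39, Spdl1, Col8a1 and Lrrfip2), which is 0.0351% of the genes outside the lists and compares with 0.277% of all genes tested.

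As a description, 59 of 110 measured genes of the mitosis list, which holds Top2a, were past the same threshold upward and none downward, with a median difference of 1.17. In the replication list it was 9 of 61, with a median of 0.84. The largest difference was that of Cdca2, a chromatin-bound phosphatase subunit of mitosis. Cdca2 was 7.81 to 10.81 (median 8.96) in Top2a-high tumors, 4.80 to 6.83 (6.66) in Top2a-low tumors and at a median of 5.14 in healthy livers. Cdca8, a subunit of the chromosomal passenger complex, differed by 2.52. On the replication list Pbk, a mitotic kinase, differed by 2.59, Mcm6, of the replicative helicase, by 1.89 and Clspn, which carries the replication checkpoint signal, by 1.63. Within chip B the median difference was 0.72 for the mitosis list and 0.17 for the replication list, so replication genes separated the sides of this chip little. Mki67 and Trp53 have no named probe and were not analysed here.

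The 8 genes whose values followed Top2a most closely over the 27 tumors with a signal were Birc5 (Pearson r = 0.97), Anln (0.95), Aurkb (0.94), Kif18b (0.94), H2ac11 (0.94), Cdca2 (0.93), Cdca3 (0.93) and Sgo1 (0.92). All 8 are on the cell cycle lists. Birc5 and Aurkb encode partners in the chromosomal passenger complex, Anln a cytokinesis scaffold, and Sgo1 the protector of centromeric cohesion. These are descriptions over tumors that share animals and chips, and they say nothing of shared control.

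Mad2l1, the floxed checkpoint gene, is itself a mitosis gene and is described with its list. It was 5.75 to 9.15 (median 8.47) in Top2a-high tumors, 5.70 to 7.64 (6.63) in Top2a-low tumors and 4.80 to 7.42 (6.72) in healthy livers. The lowest high tumor was tumor 14, the single p53 f/+ tumor on that side. Among p53 f/f tumors it was 7.66 to 9.15 in 9 high tumors and 6.15 to 7.64 in 6 low tumors, so the ranges nearly touched. The files do not place the probe relative to the exons that Cre removes, and the tumors were measured whole, so these values do not check the labels.

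Outside the lists, 21 of the 35 higher genes are linked to cell division or S phase. This grouping was made after the genes were seen. Ranking by Top2a bears on these 21 genes as it does on the lists, so their p-values describe the ranking and are no independent result. Of these, 13 are cell division or replication genes that the fixed lists had missed, and 8 are replication-dependent H2A histone genes. Cdkn3, a phosphatase that acts on the mitotic kinase, was 8.14 to 11.01 (median 9.92) in Top2a-high tumors, 5.41 to 8.48 (7.98) in Top2a-low tumors and 5.06 (median) in healthy livers, and the ranges overlapped only narrowly. It rose by 2.15 ± 0.40 (SE), or 4.44-fold (limma adjusted p = 0.00646), and by 2.40 within chip B. Arhgef39 was 6.14 to 8.52 (median 6.97) in Top2a-high tumors and 4.59 to 5.91 (5.52) in Top2a-low tumors, with no overlap, and rose by 1.84 ± 0.27 (adjusted p = 0.000653). Spdl1, which brings dynein to kinetochores, was 6.90 to 9.05 (median 7.33) in Top2a-high tumors and 4.98 to 6.65 (5.85) in Top2a-low tumors, again apart, and rose by 1.72 ± 0.29 (adjusted p = 0.00234). Fignl1, a recombination factor (1.63), Aunip, a partner of Aurora A (1.67), Haspin, the histone H3 kinase of centromeres (1.62), and Pkmyt1, the membrane-bound inhibitor of Cdk1 (0.99), also rose. Their low values are near background, since Fignl1, Aunip and Pkmyt1 were detected in 2 and Haspin in 3 of 9 Top2a-low tumors, so the sizes of these differences are uncertain. The call of Aunip was lost without each of 9 tumors in turn (adjusted p up to 0.0689).

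Of 13 replication-dependent H2A histone genes measured, 9 passed the test upward, of which H2ac11 is on the mitosis list. The other 4 did not pass, at differences of 0.83 for H2ac21 (adjusted p = 0.180), 0.27 for H2ac4 (0.464), 0.14 for H2ac19 (0.856) and 0.03 for H2ac18 (0.971). H2ac12 was 9.88 to 12.94 (median 11.41) in Top2a-high tumors, 7.89 to 9.96 (9.29) in Top2a-low tumors and at a median of 8.05 in healthy livers. It rose by 1.98 ± 0.33 (adjusted p = 0.00235). H2ac15 rose by 1.95, H2ac24 and H2ac7 by 1.77 each, H2ac22 by 1.62, H2ac20 by 1.44, H2ac13 by 1.21 and H2ac10 by 0.93. H2ac10 was not called without each of 13 tumors in turn (adjusted p up to 0.101). These genes encode near-identical proteins from similar sequences, so their probes may read the same transcripts and the count of H2A genes is uncertain. None of the other core histone genes passed the test. The differences of 10 H2B, 8 H3 and 11 H4 genes were all above 0, with medians of 0.35, 0.99 and 0.44, and 1 H2B, 7 H3 and 1 H4 gene were higher at an unadjusted p under 0.05. Within chip B the H2A differences were far smaller, at 0.55 for H2ac12 and 0.17 for H2ac10.

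Groups of genes placed under other roles remained, again grouped after they were seen. Whether these genes also follow the share of cycling cells was not tested. Their p-values show that they moved with Top2a, and not that they are apart from the cell cycle. The first group concerns chromatin and the nuclear envelope, where 5 genes rose and 1 fell. Ezh2, the catalytic subunit of the Polycomb repressive complex that methylates histone H3, was 7.21 to 9.74 (median 8.19) in Top2a-high tumors, 5.90 to 7.47 (6.73) in Top2a-low tumors and 6.70 (median) in healthy livers. It rose by 1.50 ± 0.29, or 2.82-fold (adjusted p = 0.00821), and 8 of 10 high tumors lay above every low tumor. Among p53 f/f tumors alone Ezh2 differed by 1.30 (adjusted p = 0.156) and within chip B by 0.59. Cbx7, a subunit of the other Polycomb complex that reads this histone mark, moved the other way. It was 4.96 to 6.56 (median 6.01) in Top2a-high tumors, 6.19 to 7.86 (7.18) in Top2a-low tumors and 6.58 (median) in healthy livers. It fell by 1.25 on the log2 scale (SE 0.25, 2.38-fold, adjusted p = 0.0102), and by 1.78 within chip B. Cbx7 and Extl1 were the 2 genes outside the lists that stayed called with chip as a fixed effect, with limma adjusted p of 0.0462 and 0.0494. Hmgn2, a nucleosome-binding protein, rose by 1.13, Hirip3, a histone chaperone partner, by 1.29, and the nuclear envelope genes Lmnb2 and Nrm by 1.31 and 1.15. The call of Lmnb2 was lost without tumor 2, 8, 23 or 29 (adjusted p up to 0.0636).

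The second group concerns cytoskeleton, matrix and secreted factors. Acta2, smooth muscle actin, which marks activated stellate cells and smooth muscle and is also made in fetal liver, was 10.74 to 12.70 (median 11.19) in Top2a-high tumors, 8.87 to 11.08 (9.46) in Top2a-low tumors and 8.14 (median) in healthy livers. It rose by 1.72 ± 0.29, or 3.30-fold (adjusted p = 0.00216), and stayed called whichever of 19 tumors was left out. Among p53 f/f tumors alone Acta2 rose by 1.95, at 10.74 to 11.94 in 9 high tumors and 8.87 to 9.54 in 6 low ones. Within each class the p53 f/+ tumors had more Acta2 than the p53 f/f tumors: 12.70 in the 1 high p53 f/+ tumor, 11.53 to 13.04 against 8.87 to 10.14 in middle tumors, and 9.71 to 11.08 in the 3 low p53 f/+ tumors. On the deposited log2 values, which include tumor 12, Acta2 was not called (0.98, adjusted p = 0.430). Tumor 12 is low in Top2a but had 14.47 of Acta2, above the highest high tumor (12.42), and without it the deposited values gave 1.46 (adjusted p = 0.00735). With all 27 tumors split at the median Acta2 did not pass (0.76, adjusted p = 0.512), nor did it in sides ranked by the other mitosis genes (0.88, adjusted p = 0.402) or with chip as a fixed effect (1.53, adjusted p = 0.0651).

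**Figure D2:**
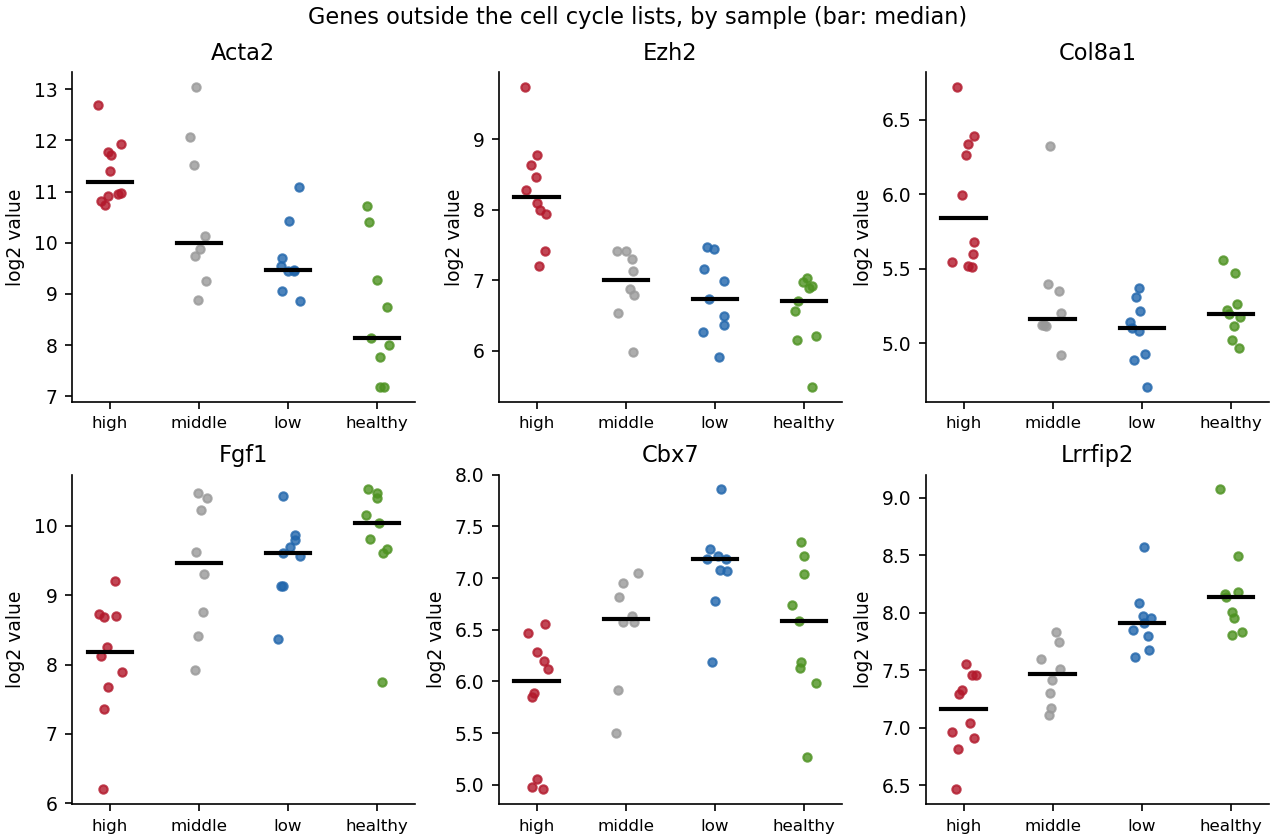
Neqc log2 values (vertical axes) of 6 called genes outside the cell cycle lists in Top2a-high (n = 10), middle (n = 8), Top2a-low (n = 9) tumors and healthy livers 2 to 10 (n = 9). Points are samples and bars are medians. Acta2, Ezh2 and Col8a1 are higher and Fgf1, Cbx7 and Lrrfip2 lower in Top2a-high than in Top2a-low tumors, with no overlap between these sides for Col8a1 and Lrrfip2.

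Other matrix genes of the stellate cell, fibroblast and matrix list did not pass. Of its 33 measured genes 1 (Acta2) was called, 7 were higher and 2 lower at an unadjusted p under 0.05, and the list's median was 0.10. Col1a1, the main fibrillar collagen, differed by 1.36 (adjusted p = 0.113) and Col4a1, of basement membranes, by 0.84 (adjusted p = 0.108). Tagln, another smooth muscle gene, differed by 0.40 and Pdgfra, a receptor of stellate cells, by -1.51 (adjusted p = 0.168 and 0.215), so the list's genes did not move one way. Outside the list, Col8a1, a short-chain collagen, was 5.51 to 6.72 (median 5.84) in Top2a-high tumors and 4.71 to 5.37 (5.10) in Top2a-low tumors and rose by 0.88 ± 0.17 (adjusted p = 0.00646). Its low values are near background, since its probe was detected in 0 of 9 low tumors, and against the lowest detected signals of those arrays Col8a1 was at least 1.41-fold higher in Top2a-high tumors. On the deposited values it was not called with tumor 12 (0.06, adjusted p = 0.809) and was called without it (0.14, adjusted p = 0.0182). Nid2, of basement membranes, rose by 1.01, Pfn1, which binds actin monomers, by 0.65 and Gask1b, detected in 4 of 9 low tumors, by 1.32. The call of Nid2 was lost without each of 11 tumors in turn (adjusted p up to 0.0869) and that of Gask1b without tumor 15 (adjusted p = 0.0544). Fgf1, a growth factor, was 6.20 to 9.21 (median 8.19) in Top2a-high tumors, 8.37 to 10.43 (9.60) in Top2a-low tumors and 10.05 (median) in healthy livers. It fell by 1.43 on the log2 scale (SE 0.32, 2.70-fold, adjusted p = 0.0312), but its call was lost without each of 10 tumors in turn (adjusted p up to 0.0677) and within chip B it differed by -0.51.

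**Figure D3:**
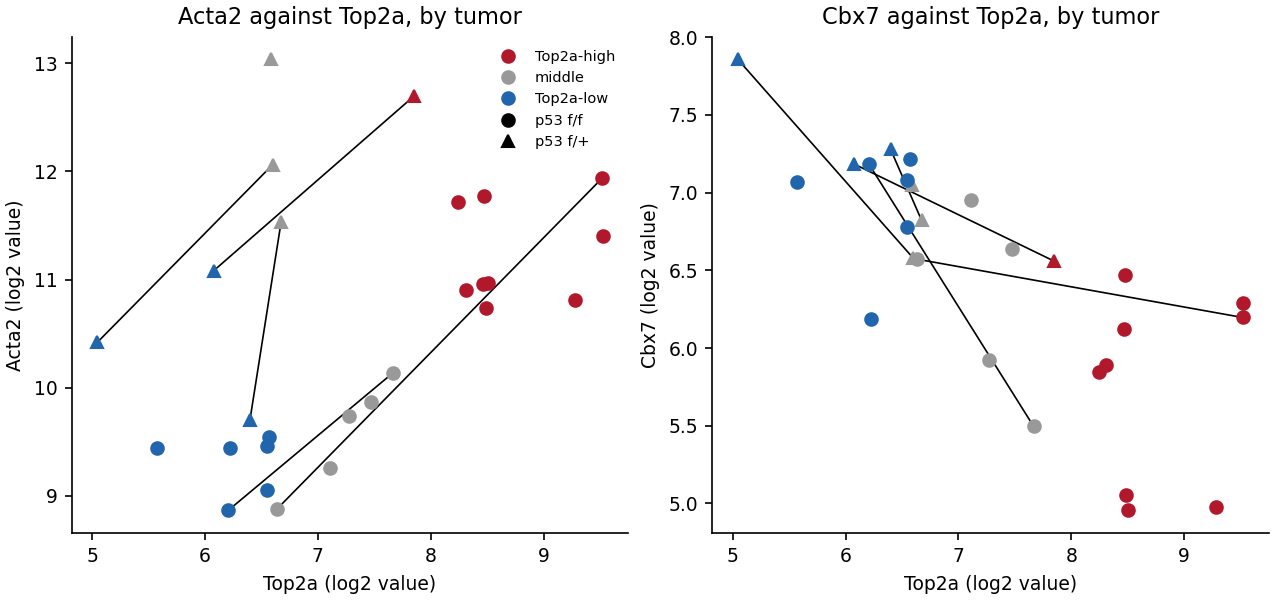
Neqc log2 values of Acta2 (left) and Cbx7 (right) against Top2a in 27 liver tumors. Circles are p53 f/f and triangles p53 f/+ tumors, colors give the side, and lines join tumors of 1 mouse that fell into different classes. In each of the 5 joined pairs the tumor with more Top2a had more Acta2 and less Cbx7.

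The remaining groups are RNA processing and metabolism genes and signaling adaptors. Ctps, the enzyme that makes CTP, rose by 1.27 ± 0.30 (adjusted p = 0.0411). It was the 1 called gene of 23 measured in the nucleotide synthesis list, whose median was 0.41, and its call was lost without each of 12 tumors in turn (adjusted p up to 0.117). Snrpd1, a spliceosome core protein, rose by 1.01, Selenoh, a nucleolar selenoprotein, by 1.03 and Khdrbs1, an RNA-binding splicing regulator, by 0.66. These 3 calls were lost without each of 8 to 10 tumors in turn (adjusted p up to 0.0843). In the downward direction, Extl1, a glycosyltransferase of the exostosin family, was 4.81 to 6.03 (median 5.48) in Top2a-high tumors and 5.39 to 8.14 (6.69) in Top2a-low tumors, and fell by 1.36 on the log2 scale (adjusted p = 0.0357). Pmm1, a phosphomannomutase, fell by 1.34. Extl1 was detected in 5 and Pmm1 in 4 of 10 high tumors, so their values there are near background and the sizes of both differences are uncertain. Tcn2, the plasma carrier of vitamin B12, fell by 0.96, the bicarbonate transporter Slc4a4 by 0.87 and Iscu, the iron-sulfur cluster scaffold, by 0.57. Lrrfip2 was 6.46 to 7.55 (median 7.16) in Top2a-high tumors and 7.61 to 8.57 (7.91) in Top2a-low tumors, with no overlap, and fell by 0.81 on the log2 scale (adjusted p = 0.0160). Arrdc2 fell by 0.85 and Ikbkg, the regulatory subunit of the kinase that activates NF-kappa B, by 0.82. Of the 10 lower genes, Cbx7 and Lrrfip2 were called whichever tumor was left out, and each of the other 8 was lost when any of 2 or more tumors was left out.

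The 8 middle tumors did not enter the comparison. The median of the middle tumors lay between those of both sides for 44 of the 45 called genes outside the lists. Genes called for separated sides leave room between them, so this count is a description. The exception was Ikbkg, with medians of 9.54 in high, 10.78 in middle and 10.33 in low tumors. For Ezh2 and Acta2 the middle medians (7.00 and 10.00) were nearer to the low than to the high side.

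In 5 mice the tumors fell into different classes. Tumors 14 and 15, and 1 tumor of each other pair, were among the 19 that called the genes, so their values are a description and no independent check. Acta2 was higher and Cbx7 lower in the tumor with more Top2a in all 5 pairs, with differences of 1.27 to 3.06 for Acta2 and of -1.69 to -0.37 for Cbx7. Ezh2 differed by -0.02 to 1.64, so it was not higher in every pair, and Fgf1 by -1.90 to -0.30. Of the 45 called genes outside the lists, 35 to 43 kept their direction within a pair.

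Chip B alone held 3 high and 3 low tumors, all among the 19 that called the genes, so the direction of the 45 genes there is fixed in part by their choice. The median size of their differences was 0.59 in chip B, against 1.27 in the whole comparison. None of the 45 was called there by limma, with 6 tumors, and over all genes 380 were higher and 370 lower at an unadjusted p under 0.05. Without chips A, D and F, which held a single side, their median size was 1.11 and 0 of 45 were called, with 15 genes called higher in all. With p53 genotype as a covariate 26 of the 45 were called, and with p53 f/f tumors alone 12 of 45. The parts of chip and of genotype in these differences were not tested beyond these fits.

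**Figure D4:**
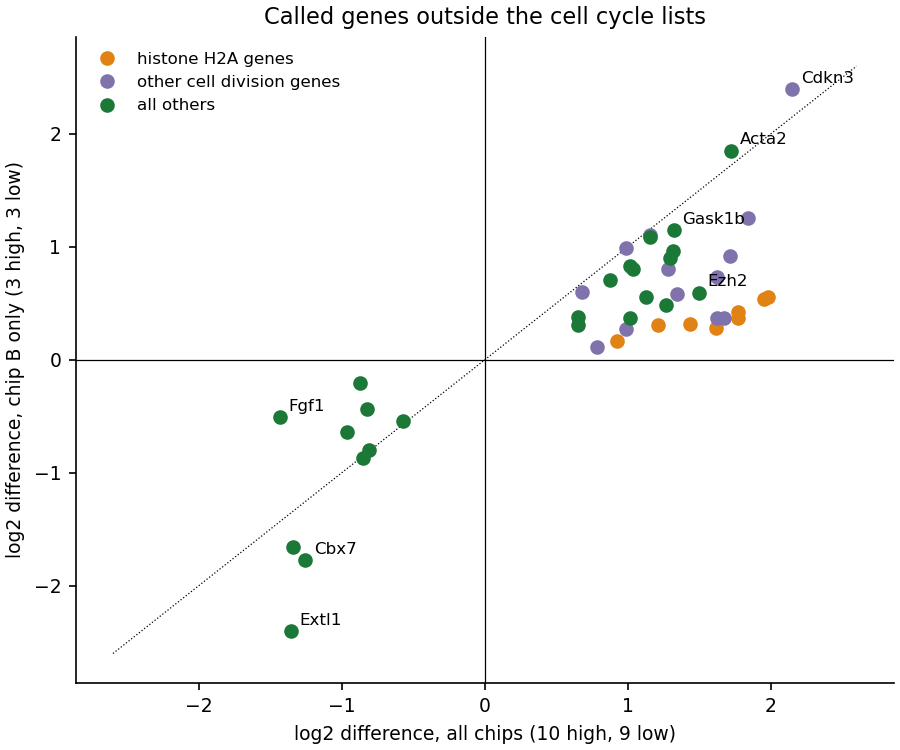
Log2 difference, Top2a-high minus Top2a-low, of the 45 called genes outside the cell cycle lists in the whole comparison (horizontal axis, 10 high and 9 low tumors) and in chip B alone (vertical axis, 3 high and 3 low tumors). Each point is a gene and the dotted line marks equal values. The chip B tumors are part of the whole comparison. H2A histone genes lie well below the line.

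Beyond single genes, 40 further lists of metabolic, liver, stress, immune, cell type and sex-biased genes were read by their counts and medians. Outside the 2 cell cycle lists, 6.57% of all genes were higher and 6.24% lower at an unadjusted p under 0.05, which is the background for the counts that follow (7.63% and 6.15% of all genes tested). Ribosome biogenesis genes, which build the machinery of protein synthesis, differed upward in 26 of 29 cases with a median of 0.50. None was called, and 12 were higher at an unadjusted p under 0.05. Nop56, of the small nucleolar ribonucleoproteins, was 8.8 to 11.2 in Top2a-high tumors and 7.8 to 9.4 in Top2a-low tumors (1.18 ± 0.32, adjusted p = 0.0967). Within chip B the list's median was -0.07. Nucleotide synthesis genes had 7 higher and 1 lower of 23 at that level, and a chip B median of 0.04.

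Among liver functions, drug-metabolizing P450s had the lowest median, -0.98 over 33 genes. None was called, 30 differed downward and 15 were lower at an unadjusted p under 0.05. The mean level over the P450 list had medians of 9.79 in Top2a-high, 11.03 in middle and 10.54 in Top2a-low tumors, so it did not fall steadily with Top2a. In Top2a-low tumors it ranged from 8.87 to 12.33. Cyp1a2, a P450 of pericentral hepatocytes, was 5.8 to 12.5 in Top2a-high tumors, 8.9 to 14.1 in Top2a-low tumors and 13.0 to 15.0 in healthy livers, and differed by -2.55 ± 0.87 (adjusted p = 0.194). Cyp2d22 differed by -0.98 ± 0.24 (adjusted p = 0.0548). Pericentral and beta-catenin target genes had a median of -0.65 (0 of 21 called), bile acid genes -0.38 (0 of 20) and hepatocyte transcription factors -0.25 (0 of 23). The hepatocyte markers had a median of -0.08 over 12 genes, 4 upward and 8 downward, and coagulation and complement genes one of -0.15. Of these markers, Fga, Apoa1, Apoa2 and Trf had medians of 15.3 to 15.6 on both sides, near the top of the scale, where differences are compressed. The small median of the markers thus rests in part on such values. Cyp2e1 differed by -1.81 and G6pc by -1.20 (limma adjusted p = 0.494 and 0.408), and the largest upward difference was 0.04. Within chip B the P450 median was 0.10 and that of bile acid genes 0.32, so these lists did not keep their direction there. Among p53 f/f tumors the P450 median was -0.46.

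Female-biased liver genes had a median of -1.28 over 12 genes, all downward, 5 at an unadjusted p under 0.05 and none called, and -0.13 within chip B. The labels give no sexes. Xist, which is made in female cells, was detected in 2 of 10 Top2a-high tumors, 2 of 8 middle tumors and 4 of 9 Top2a-low tumors, and differed by -1.20 ± 0.80 (adjusted p = 0.516). The part of sex in the female-biased and P450 values was not tested.

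No gene of the growth control lists was called. The list of Myc, cyclin D kinases and their inhibitors had a median of 0.13, with 0 of 22 called. Myc, the growth transcription factor, was 4.86 to 6.51 (median 5.41) in Top2a-high tumors and 4.87 to 7.90 (5.53) in Top2a-low tumors (-0.30 ± 0.32, adjusted p = 0.717). Met, the receptor of hepatocyte growth factor, was 6.05 to 7.27 in Top2a-high tumors and 5.15 to 7.37 in Top2a-low tumors (0.07 ± 0.24, adjusted p = 0.925). Igf2, the fetal growth factor, was 15.30 to 15.54 in Top2a-high tumors and 9.15 to 15.47 in Top2a-low tumors, against 6.91 (median) in healthy livers (1.28 ± 0.65, adjusted p = 0.391). All 10 high tumors thus had Igf2 near the top of the scale, where differences are compressed, and the medians of 15.41 and 15.30 were close. The low values were those of p53 f/+ tumors: 9.15 to 14.33 in the 3 low p53 f/+ tumors, against 15.30 to 15.47 in the 6 low p53 f/f tumors. Among p53 f/f tumors alone Igf2 differed by 0.02 and did not pass. Genes activated by p53 had a median of -0.30, with 0 of 23 called and 4 lower at an unadjusted p under 0.05 (Sesn1, Phlda3, Rrm2b and Ccng1). Their median was -0.20 with p53 genotype as a covariate, -0.23 among p53 f/f tumors and -0.05 within chip B.

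Markers of other cells showed no called gene apart from Acta2. Neutrophil markers had a median of -0.88, with 13 of 13 downward, 4 lower at an unadjusted p under 0.05 and a mean level of 6.29 to 8.09 in Top2a-high tumors and 6.69 to 9.77 in Top2a-low tumors. Retnlg, a granule protein of neutrophils, differed by -1.59 ± 0.54 (adjusted p = 0.192). This list kept its direction within chip B (-0.58) and among p53 f/f tumors (-1.27), which are tumors of the same comparison. Its mean level had medians of 7.29 in Top2a-high, 7.19 in middle and 7.71 in Top2a-low tumors, so it did not follow Top2a over the whole ranking. Endothelial markers had a median of -0.07, with 12 of 26 upward and 14 downward. At an unadjusted p under 0.05, 5 were lower and 1 higher. Clec4g was lowest (-2.21). Sinusoidal genes such as Oit3 (-1.79, adjusted p = 0.151) and Stab2 (-1.20, adjusted p = 0.309) were downward and Stab1 (1.38, adjusted p = 0.169) upward. Macrophage and Kupffer cell (-0.04), T and NK cell (0.13), B and plasma cell (-0.40), dendritic cell and class II (-0.08), bile duct (0.09) and red cell precursor (-0.05) lists had no called gene, and T and NK cell markers had a chip B median of 1.00. The part of cell mixture in the results was not tested.

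**Figure D5:**
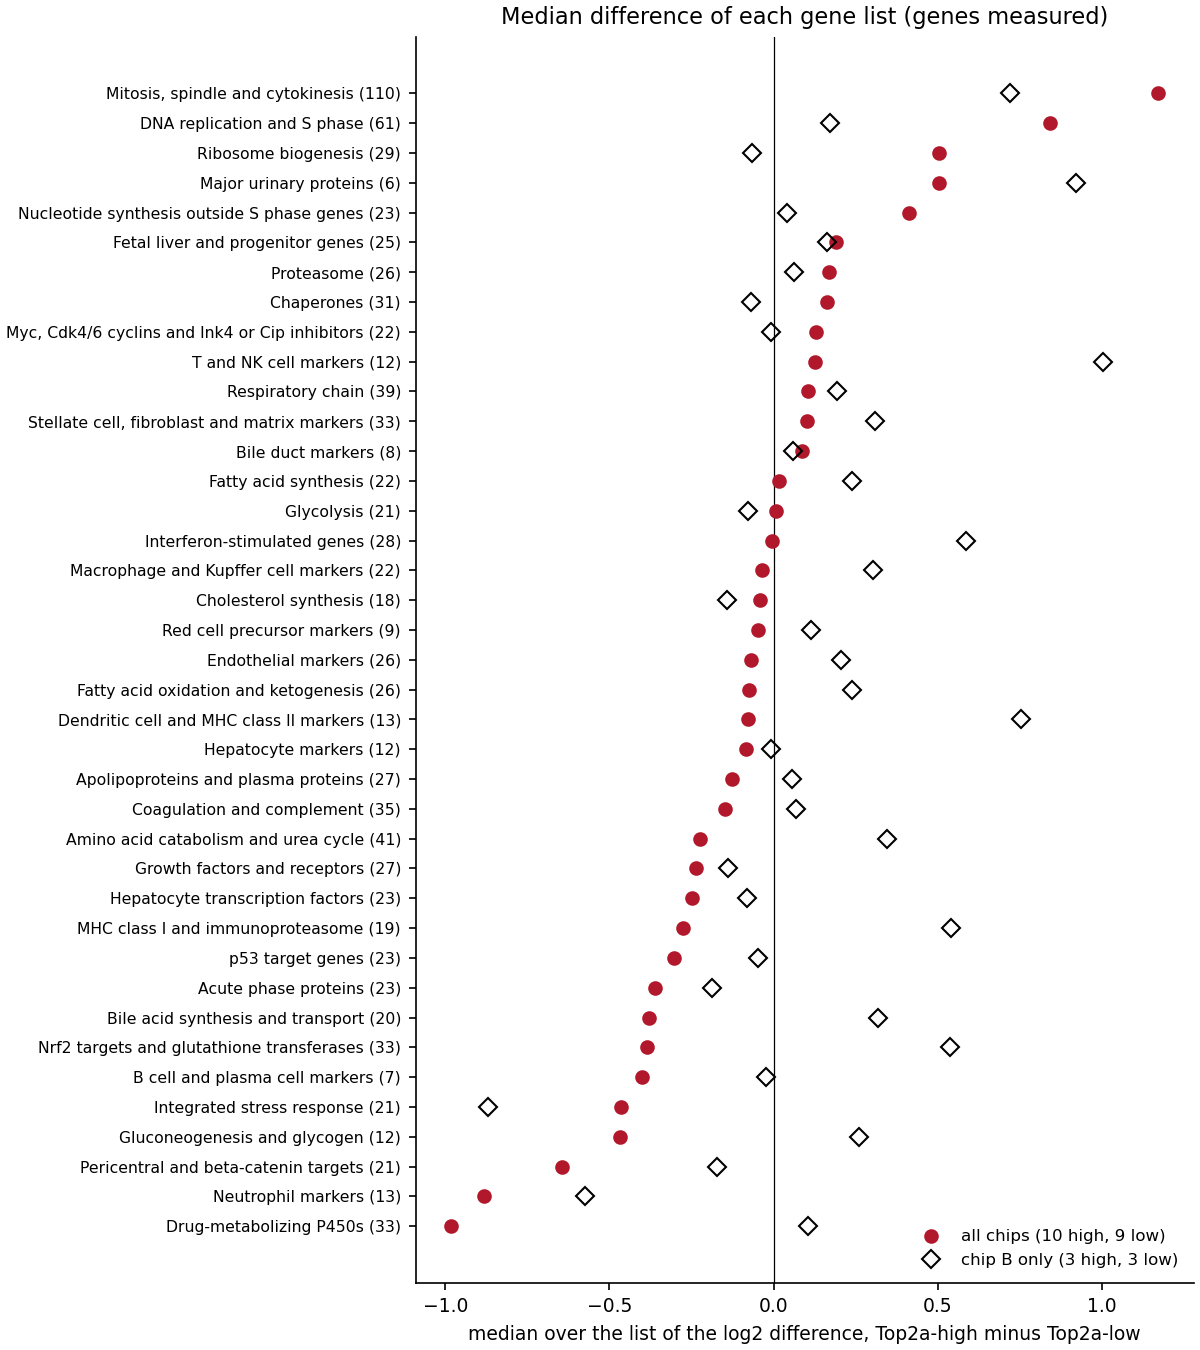
Median over each gene list (rows, with the number of genes measured) of the log2 difference, Top2a-high minus Top2a-low. Filled circles are the whole comparison and open diamonds chip B alone, and lists of sex-biased genes are not drawn. The mitosis list is highest, at 1.17 and 0.72, while the P450 list is lowest of those drawn in the whole comparison (-0.98) and at 0.10 in chip B.

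Chromosome-wide expression was compared because the tumors were made to be aneuploid. For each tumor the mean over the genes of a chromosome, relative to all ranked tumors with a signal and to all autosomes, and without the cell cycle lists, was compared between sides. No chromosome passed (exact permutation test, two-sided, adjusted over 20 chromosomes, lowest adjusted p = 0.462), and 2 had an unadjusted p under 0.05, chromosomes 11 and 18. This test took tumors of 1 mouse as independent. With the tumors of an animal averaged, neither stayed under 0.05 (unadjusted exact p = 0.0650 for chromosome 11 and 0.0796 for chromosome 18). Chromosome 11, which carries Top2a (left out with its list), was at 0.07 ± 0.08 in Top2a-high tumors and -0.03 ± 0.12 in Top2a-low tumors (SD, n = 10 and 9, unadjusted exact p = 0.0416). The widest differences were those of chromosome 15, at -0.08 ± 0.19 in Top2a-high tumors and 0.10 ± 0.32 in Top2a-low tumors (exact p = 0.160), and chromosome 12, at 0.10 ± 0.31 in Top2a-high tumors and -0.03 ± 0.21 in Top2a-low tumors (exact p = 0.312). Single tumors ranged up to 0.76 on chromosome 12 and 0.74 on chromosome 15, well beyond these differences.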

How the data were processed

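Total RNA of whole liver tumors and livers had been hybridized to Illumina bead arrays. The authors deposited bead signal intensity per probe (background already subtracted), a detection score per probe as a fraction from 0 to 1, and normalized log2 values, for which the processing notes name limma. The detection score was read as 1 minus a detection p-value. Of the bead signals, 2 columns of 1 unlabelled array were not used. Signals of 38 liver arrays were normalized with neqc (limma 3.58.1, R 4.3.3, offset 16), keeping probes detected (p under 0.05) on at least 5 arrays and, per gene, the probe with the highest mean. Probes were named through the platform table (34885 of 45281 had 1 symbol) and current symbols through RefSeq. The fit used lmFit and eBayes (trend, robust) with animal as a random block (duplicateCorrelation, statmod 1.5.0, consensus 0.0466), and Fisher's and exact permutation tests used scipy 1.17.1. The fit and the permutation test were tested on simulated data. Animals were taken from the mouse numbers in the labels. Tumors are the replicates, and the number of arrays limits the precision. Software and background step of the bead signals were not given in the sources used here, and the equal medians of the log2 values point to quantile normalization within liver arrays. The ranking, the lists and the members were chosen with earlier results of these data known.

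The genes named are Top2a, Mki67, Mad2l1, Trp53, Met, Myc and Igf2, the 10 largest called changes each way outside the cell cycle lists, up to 3 called members of each list, and the 8 genes of highest correlation with Top2a. Others were named after their values were seen. Alternatives covered values, scaling, detection filters, animal, genotype, chip, array quality, grouping, moderation and each tumor left out. Dim tumor 13 was left out of the ranking.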

Additional observations from a re-analysis of the deposited data

Results flagged for a closer look

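Among 62 genes described here, 16 of 124 values by side held a tumor far from the others of its side. Chance flags 1 in 20 of independent values. Many of these genes were chosen for moving with Top2a and are not independent, so the 16 cannot be set against that rate. Liver tumor 29, the Top2a-low tumor with the least Top2a among those with a signal, held 11 of these values, and the genes share that tumor. By that place in the ranking it had in part to be low for genes that move with Top2a. It was lowest of the low side for Cdkn3 (5.41), H2ac15 (7.91), H2ac11 (4.91), H2ac13 (11.09), H2ac20 (10.57), Pbk (4.79), Cdca2 (4.80), Cdca3 (6.91) and Met (5.15). It was highest of that side for Myc (7.90) and Lrrfip2 (8.57). In liver tumor 14, the p53 f/+ tumor of the high side, Mad2l1 (5.75) lay far below the other high tumors. Tedc1 was far above the other high tumors in liver tumor 24 (8.32) and Nid2 in liver tumor 2 (9.96), and Pfn1 was far below them in liver tumor 9 (11.17). Hyls1 was far above the other low tumors in liver tumor 4 (6.03).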

How the results depend on the processing

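The count of 103 genes higher and 10 lower in Top2a-high tumors depended on the processing, while all 45 called genes outside the cell cycle lists kept their direction under every alternative in which they were measured, all of which share tumors with the comparison that chose these genes. The count of higher genes was 190 with median scaling, 56 with p53 f/f tumors alone, 15 with chip as a fixed effect, 63 with the share of probes detected as a covariate and 758 for a slope on Top2a over all tumors. Median scaling moved the median difference of all genes to 0.14. The count of lower genes was 1 on the authors' log2 values, 1 with median scaling, 2 with the tumors of an animal averaged, 6 with p53 genotype as a covariate, 1 with p53 f/f tumors alone, 3 with chip as a fixed effect, 6 with the share of probes detected, 5 with the 7 highest against the 7 lowest, 5 with a split at the median, 374 for the slope and 21 with all liver arrays in 1 fit. With 1 tumor left out it was 76 to 123 higher and 3 to 35 lower genes, with 35 lower without tumor 7, 26 without tumor 26, 16 without tumor 22 and 3 without tumor 16. The following were chosen after seeing the data: chip B alone gave 0 higher and 0 lower genes by limma (380 and 370 at an unadjusted p under 0.05), leaving out chips A, D and F gave 15 and 0 (489 and 403), and the authors' log2 values without liver tumor 12 gave 60 and 4. The cause of these changes was not tested, beyond the smaller number of tumors in several of them. The genotype mix and the chromosome means stayed on their side of the threshold in every alternative run. No paired analysis was possible because the replicate numbers are the tumors' own title numbers, which differ between the sides, and 1 mouse alone had a tumor on each side (tumors 14 and 15), so animal was a random block. Values near background limit the sizes of differences, on the low side for genes such as Col8a1 and Fignl1 and on the high side for Pmm1 and Extl1. The lowest value of a detected probe on an array averaged 5.52 over the 38 liver arrays.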
